A study of Homo sapiens with 16 samples.

Results

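The responses of REC-1 and SP49, both human mantle cell lymphoma cell lines, to the IKKbeta inhibitor AFN700 are described here across all genes of the array. They rest on 4 of the 16 arrays of the series: in each line 1 array of cells treated with 5 uM AFN700 for 20 hours, and 1 array of cells given 0.025% DMSO for the same time. The labels call these 2 lines sensitive to ibrutinib and to an agent written "stn", and they give no sensitivity to AFN700. The other 12 arrays are the same pair of treatments in 6 lines labelled insensitive (JVM-2, JVM-13, Maver-1, Z-138, HBL-2 and GRANTA-519), of which the AFN700 array of JVM-13 carries AFN701 in its treatment field and AFN700 in its title. With a single array for each treatment of a line, the replicates are the lines (n = 2), and this small number limits the precision of all values. The genes named are those whose intensity differed at least 2-fold with one sign in both lines, and exceeded 50 on both arrays of the side where it was higher. The rule took 28 of 19775 genes with a probe set of their own, 11 lower and 17 higher with AFN700.

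IKKbeta phosphorylates IkBalpha, the protein that holds the classical NF-kB factors in the cytoplasm, and marks it for destruction. NF-kB then enters the nucleus and binds the kappaB sequence at genes for its own inhibitors, for chemokines and adhesion molecules, and for proteins that block cell death. In B cells the pathway is switched on by the B-cell receptor through BTK, the kinase that ibrutinib inhibits, as well as by CD40 and Toll-like receptors. IKKbeta inhibitors are used to lower this transcription.

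Both lines had the transcripts of B cells on all 4 arrays. MS4A1, the gene of CD20, lay at 4304 with AFN700 and 3793 with DMSO in REC-1 and at 5372 with AFN700 and 4683 with DMSO in SP49, in units of deposited intensity. CCND1, the cyclin gene translocated in mantle cell lymphoma, lay between 1752 and 1898, and SOX11 between 663 and 1922. CD5, a surface protein usual in this lymphoma, was near the floor, at 0.6 to 1.2 in REC-1 and 9.6 to 20.6 in SP49. The summed intensity of 5 T-cell markers was 455 with AFN700 and 372 with DMSO in REC-1, and 65.7 with AFN700 and 80.2 with DMSO in SP49. CD3D (164 with AFN700 and 141 with DMSO), CD3E (147 with AFN700 and 89.1 with DMSO) and CD3G (59.0 with AFN700 and 61.4 with DMSO) carried signal in REC-1, while CD2, at 1.5 with AFN700 and 1.1 with DMSO, did not. The sum over 4 myeloid markers was 17.2 with AFN700 and 11.7 with DMSO in REC-1, and 126.8 with AFN700 and 89.8 with DMSO in SP49. Most of the SP49 sum was LYZ, at 121.2 with AFN700 and 83.1 with DMSO. Sums over 4 fibroblast markers lay between 9.5 and 58.2 on the 4 arrays. The sum over 4 epithelial markers was 116.4 with AFN700 and 111.8 with DMSO in REC-1, and 117.2 with AFN700 and 64.5 with DMSO in SP49. Of these EPCAM was at 79.7 with AFN700 and 74.5 with DMSO in REC-1, and at 52.9 with AFN700 and 17.3 with DMSO in SP49. The part of these transcripts in the results was not tested.

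The promoter windows of the lower genes that hold a kappaB site are shown first, since this sequence is what the named pathway reads. Windows run from 250 bases before to 50 bases after the annotated start, from RefSeq (GRCh38.p14), 5′ to 3′ on the strand of the gene. Capitals mark every match to the kappaB consensus, searched on both strands. Of the 11 lower genes 10 had a window in the table, and 6 of the 10 held at least 1 match.

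CXCL10: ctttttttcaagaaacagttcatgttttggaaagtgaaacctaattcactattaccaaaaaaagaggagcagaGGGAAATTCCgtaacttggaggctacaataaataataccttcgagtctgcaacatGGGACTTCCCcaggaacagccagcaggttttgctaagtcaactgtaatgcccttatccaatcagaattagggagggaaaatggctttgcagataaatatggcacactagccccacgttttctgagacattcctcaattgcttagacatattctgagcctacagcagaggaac
TNFAIP3: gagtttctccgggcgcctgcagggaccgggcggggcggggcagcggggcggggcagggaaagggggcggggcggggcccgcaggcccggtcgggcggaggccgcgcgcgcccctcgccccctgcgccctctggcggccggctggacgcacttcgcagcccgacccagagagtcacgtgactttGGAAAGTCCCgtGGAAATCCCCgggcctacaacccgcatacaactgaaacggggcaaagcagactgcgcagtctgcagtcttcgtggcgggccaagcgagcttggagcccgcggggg
SGPP2: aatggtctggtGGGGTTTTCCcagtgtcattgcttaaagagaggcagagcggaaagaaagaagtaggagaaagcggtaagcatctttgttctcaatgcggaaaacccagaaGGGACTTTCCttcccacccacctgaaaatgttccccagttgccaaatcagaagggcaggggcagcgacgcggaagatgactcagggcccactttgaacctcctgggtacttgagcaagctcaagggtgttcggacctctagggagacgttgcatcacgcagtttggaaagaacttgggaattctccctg
NFKBIA: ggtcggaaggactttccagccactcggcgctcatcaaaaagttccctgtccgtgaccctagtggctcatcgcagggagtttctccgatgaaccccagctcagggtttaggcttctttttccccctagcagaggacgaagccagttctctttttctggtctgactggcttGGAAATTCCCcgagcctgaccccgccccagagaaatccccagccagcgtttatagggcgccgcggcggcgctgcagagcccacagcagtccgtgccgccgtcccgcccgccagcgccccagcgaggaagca
CFLAR: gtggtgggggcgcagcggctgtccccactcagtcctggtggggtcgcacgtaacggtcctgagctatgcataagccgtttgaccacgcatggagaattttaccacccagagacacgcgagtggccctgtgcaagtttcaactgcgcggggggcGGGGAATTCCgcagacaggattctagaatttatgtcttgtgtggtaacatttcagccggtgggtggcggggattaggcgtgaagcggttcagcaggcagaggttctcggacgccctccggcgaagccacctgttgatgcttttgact
LTB: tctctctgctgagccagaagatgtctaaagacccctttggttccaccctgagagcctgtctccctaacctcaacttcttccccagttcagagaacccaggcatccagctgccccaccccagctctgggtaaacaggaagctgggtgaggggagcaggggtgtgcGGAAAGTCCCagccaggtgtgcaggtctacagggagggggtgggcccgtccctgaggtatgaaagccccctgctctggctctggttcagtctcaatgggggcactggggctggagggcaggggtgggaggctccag

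The CXCL10 window (chr4:76023448-76023747, minus strand) holds 2 matches that begin 177 and 122 bases before the start. The TNFAIP3 window (chr6:137867009-137867308, plus strand) holds 2, at 67 and 55 bases before the start. The SGPP2 window (chr2:222423738-222424037, plus strand) holds 2, at 239 and 139 bases. NFKBIA (chr14:35404700-35404999, minus strand), CFLAR (chr2:201118466-201118765, plus strand) and LTB (chr6:31582376-31582675, minus strand) hold 1 each, at 81, 97 and 86 bases before the start. Of all 27303 promoter windows of that length in the table, 5.72% held the kappaB consensus, and of the 10056 windows of tested genes 6.61%. Of the 12 higher genes with a window 1 held it, TMEM91. With the limit lowered to 1.5-fold, 11 of 50 windows of lower genes (22.0%) and 7 of 71 windows of higher genes (9.86%) held it. For comparison, the interferon-stimulated response element core was in 1 lower window (CXCL10) and 1 higher window (CYP4V2), against 3.65% of all windows. GTAAACA, the forkhead core, was in 1 lower window (LTB) and no higher window, against 3.41%. A match is a description of letters and not a measured site of binding.

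The question of the comparison is which transcripts differ between AFN700 and DMSO cells in these 2 lines. The lower genes included inhibitors of the NF-kB pathway (NFKBIA, TNFAIP3), secreted and surface proteins (CXCL10, EBI3, LTB, ICAM1, CD1C) and a blocker of cell death (CFLAR). Of the 11, 9 were on 3 NF-kB, chemokine and cytokine lists of 60 genes, 54 of them tested, and these lists were drawn up with earlier results of the data known. The median log2 difference of the 11 was -1.31 in REC-1 and -1.63 in SP49, values that the rule itself used. The 11 are 0.129% of the 8544 genes above 50 on both DMSO arrays, and the 17 higher genes are 0.196% of the 8664 genes above 50 on both AFN700 arrays. The fold rule carries no test, and its values are given as a description.

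**Figure D1:**
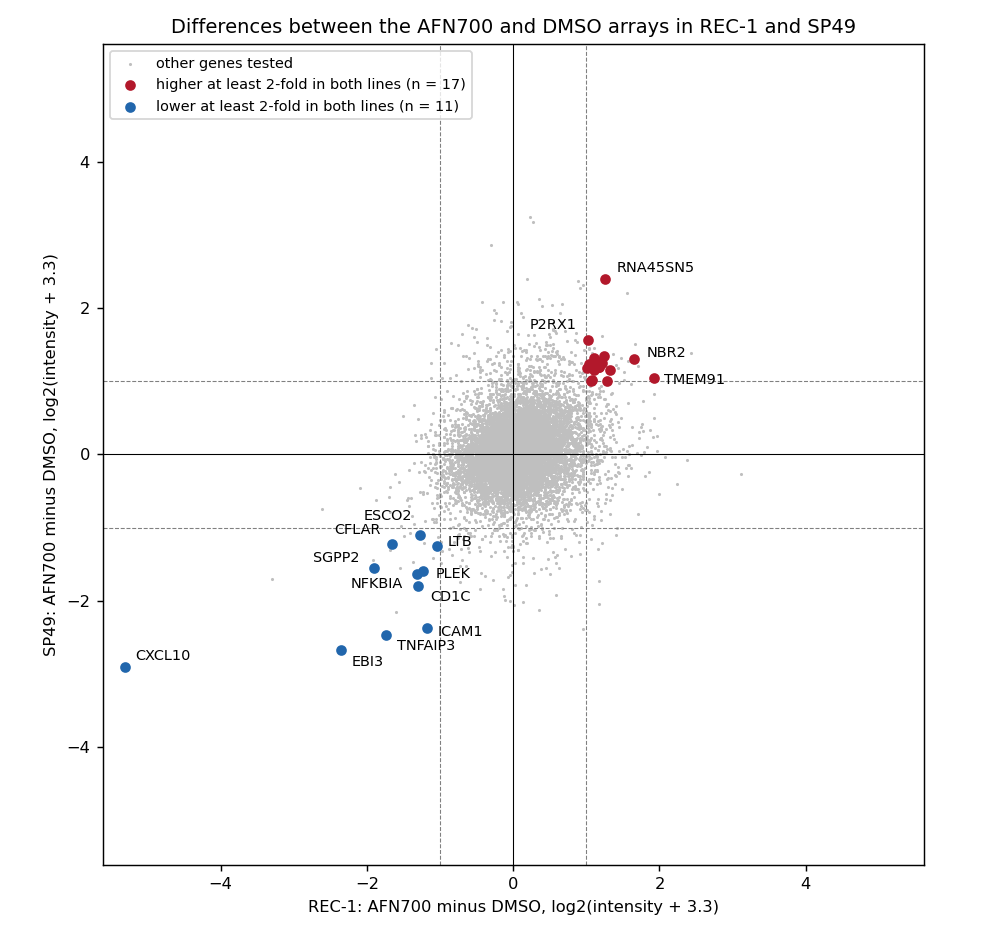
Log2 difference between the AFN700 and DMSO arrays in REC-1 (horizontal axis) and SP49 (vertical axis) for the 12314 genes tested, on the log2(intensity + 3.3) scale, with dashed lines at 2-fold. The 11 lower genes lie at the lower left, with CXCL10 farthest out (-5.31 and -2.91), and the 17 higher genes lie at the upper right, with RNA45SN5 (1.26 and 2.40), TMEM91 (1.92 and 1.04) and NBR2 (1.65 and 1.30) away from the 2-fold corner.

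CXCL10, a chemokine that attracts T cells through the receptor CXCR3, showed the largest difference of the 28. Its intensity was 3.0 with AFN700 against 246.4 with DMSO in REC-1, and 10.2 with AFN700 against 98.0 with DMSO in SP49. Both AFN700 values were near the floor of the array, and no AFN700 value reached a DMSO value. On the log2(intensity + 3.3) scale, used for every difference here, this is -5.31 in REC-1 and -2.91 in SP49, a mean of -4.11 ± 1.70 (SD, n = 2 lines). The pseudocount of 3.3 understates such a change.

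EBI3 encodes a subunit that pairs with partner chains to form the cytokines IL-27 and IL-35. It stood at 51.7 with AFN700 against 278.8 with DMSO in REC-1, and at 31.5 with AFN700 against 218.1 with DMSO in SP49. The difference was of like size in both lines, at -2.36 and -2.67. LTB, lymphotoxin beta, a membrane-bound ligand of the TNF family, was at 188.1 with AFN700 against 391.4 with DMSO in REC-1 and at 194.3 with AFN700 against 467.6 with DMSO in SP49. Its differences of -1.04 and -1.25 are among the smallest that the rule admitted.

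The inhibitors of the pathway were lower in both lines. NFKBIA encodes IkBalpha, the substrate of IKKbeta, and is itself a target of NF-kB. It was at 217.7 with AFN700 against 543.6 with DMSO in REC-1 and at 165.1 with AFN700 against 517.3 with DMSO in SP49, differences of -1.31 and -1.63. TNFAIP3 encodes A20, a ubiquitin-editing enzyme that ends NF-kB signalling. It was at 137.9 with AFN700 against 467.9 with DMSO in REC-1, and at 66.6 with AFN700 against 384.4 with DMSO in SP49, differences of -1.74 and -2.47. The DMSO values of each gene were close in the 2 lines, and all AFN700 values lay below all DMSO values. A second TNFAIP3 probe set, which the rule did not use, differed by -1.95 in REC-1 and -2.87 in SP49.

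Among surface proteins, ICAM1, the adhesion molecule bound by the integrin LFA-1, was at 174.3 with AFN700 against 399.5 with DMSO in REC-1. In SP49 it was at 42.1 with AFN700 against 232.5 with DMSO, so the difference was larger there (-2.38) than in REC-1 (-1.18). A further ICAM1 probe set, above 50 with DMSO in both lines, differed less, by -0.73 in REC-1 and -1.16 in SP49. CD1C, which presents lipid antigens, was at 89.0 with AFN700 against 224.6 with DMSO in REC-1 and at 122.0 with AFN700 against 432.0 with DMSO in SP49. CFLAR encodes c-FLIP, which keeps caspase 8 from being activated at death receptors. It was at 98.6 with AFN700 against 318.3 with DMSO in REC-1 and at 280.7 with AFN700 against 665.0 with DMSO in SP49. Both AFN700 values lay below both DMSO values. CFLAR stands on a probe set marked _x_at, a kind that can bind related transcripts, and is also measured by many others, which are described below.

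SGPP2 encodes a phosphatase of sphingosine 1-phosphate, a lipid that guides lymphocyte movement. It was at 42.8 with AFN700 against 169.0 with DMSO in REC-1 and at 165.7 with AFN700 against 490.4 with DMSO in SP49, differences of -1.90 and -1.55. PLEK, pleckstrin, a substrate of protein kinase C in blood cells, was at 204.3 with AFN700 against 482.8 with DMSO in REC-1 and at 408.0 with AFN700 against 1231.9 with DMSO in SP49. Its 2 differences, -1.23 and -1.59, lay near each other. ESCO2, an acetyltransferase that ties sister chromatids together in S phase, was at 83.1 with AFN700 against 206.1 with DMSO in REC-1 and at 306.6 with AFN700 against 661.6 with DMSO in SP49. ESCO2 also rests on an _x_at probe set, and another of its probe sets with signal, at 110.5 with AFN700 against 127.9 with DMSO in SP49, differed by only -0.21 in each line. CD1C and ESCO2 are the 2 lower genes on none of the 3 NF-kB, chemokine and cytokine lists.

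The higher genes had smaller differences than the lower ones. The 17 lay between 67.4 and 778.6 with AFN700 and between 22.2 and 382.2 with DMSO, and their median difference was 1.17 in REC-1 and 1.20 in SP49. They belong to none of the 37 gene lists. The ratio of 3' to 5' actin probe sets, which depends on RNA integrity, was 4.62 with AFN700 and 5.06 with DMSO in REC-1, but 6.39 with AFN700 and 2.73 with DMSO in SP49. The GAPDH ratio was 2.18 with AFN700 and 2.76 with DMSO in REC-1, and 3.35 with AFN700 and 1.98 with DMSO in SP49. The ratios thus moved in opposite directions in the 2 lines, and their part in the results was not tested. With each array centred on its own median the rule took 13 lower and 8 higher genes, against 11 and 17 as deposited. The median log2 intensity over probe sets was 4.06 with AFN700 and 3.94 with DMSO in REC-1, and 4.05 with AFN700 and 4.01 with DMSO in SP49.

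Noncoding transcripts were frequent among the higher genes. NBR2, MINCR, MELTF-AS1, ZBED5-AS1 and DLGAP1-AS1 are annotated as long noncoding RNAs, so that 5 of 17 (29.4%) were of this kind, against 197 (2.27%) of the 8664 genes above 50 on both AFN700 arrays. Of the 11 lower genes 0 were, against 173 (2.02%) of 8544. NBR2, transcribed beside BRCA1 on chromosome 17, was at 77.0 with AFN700 against 22.2 with DMSO in REC-1 and at 132.5 with AFN700 against 51.9 with DMSO in SP49. ZBED5-AS1, antisense to the zinc finger gene ZBED5 on chromosome 11, was at 413.4 with AFN700 against 191.7 with DMSO in REC-1 and at 610.1 with AFN700 against 273.8 with DMSO in SP49. Its 2 AFN700 values stood above both DMSO values. MINCR, a noncoding RNA named for its induction by MYC, was at 289.1 with AFN700 against 120.3 with DMSO in REC-1 and at 117.1 with AFN700 against 43.8 with DMSO in SP49.

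MELTF-AS1 (1.12 in REC-1 and 1.29 in SP49) rests on an _x_at probe set, and DLGAP1-AS1 lay exactly at the 2-fold limit in SP49 (1.28 and 1.0). RNA45SN5, a copy of the 45S precursor of ribosomal RNA, was at 77.0 with AFN700 against 30.3 with DMSO in REC-1 and at 164.5 with AFN700 against 28.5 with DMSO in SP49, also on an _x_at probe set. Its 2.40 in SP49 was the largest difference among the higher genes. A further RNA45SN5 probe set differed by 1.28 in REC-1 and by 0.9 in SP49, where it was at 20.2 with AFN700 against 9.3 with DMSO. Over all 636 long noncoding RNAs tested, the median difference was 0.27 in REC-1 and 0.13 in SP49, against 0.05 and 0.04 over all 12314 genes. In HBL-2 it was 0.32, against 0.17 over all genes, with an actin ratio of 16.68 with AFN700 and 1.9 with DMSO. In Z-138 it was 0.10, against 0.03 over all genes, with actin ratios of 5.43 with AFN700 and 3.5 with DMSO. In Maver-1 it was 0.02, against 0.0 over all genes, with actin ratios of 18.83 with AFN700 and 10.33 with DMSO. The noncoding median was thus above that of all genes in these lines, by little in Maver-1. In JVM-2 it was 0.04, against 0.01 over all genes, with actin ratios of 2.09 with AFN700 and 2.12 with DMSO. In JVM-13 and GRANTA-519 the order was the other way, at 0.20 against 0.27 over all genes in JVM-13 (actin ratios 3.43 with AFN700 and 2.01 with DMSO) and at -0.10 against -0.05 in GRANTA-519 (2.72 with AFN700 and 2.78 with DMSO). The part of RNA integrity in these medians was not tested.

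QPRT makes a precursor of NAD from quinolinate, and was at 83.9 with AFN700 against 35.5 with DMSO in REC-1 and at 178.0 with AFN700 against 75.6 with DMSO in SP49. DPEP2, a dipeptidase that trims leukotrienes, was at 87.3 with AFN700 against 35.6 with DMSO in REC-1 and at 67.4 with AFN700 against 26.4 with DMSO in SP49. CYP4V2, a fatty acid hydroxylase, was at 241.4 with AFN700 against 112.7 with DMSO in REC-1 and at 249.4 with AFN700 against 122.4 with DMSO in SP49. These 3 had nearly equal differences in the 2 lines, namely 1.17 and 1.20 for QPRT, 1.22 and 1.25 for DPEP2, and 1.08 and 1.01 for CYP4V2.

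P2RX1, a cation channel opened by extracellular ATP, was at 778.6 with AFN700 against 382.2 with DMSO in REC-1 and at 312.5 with AFN700 against 103.3 with DMSO in SP49. Its DMSO level in REC-1 exceeded the AFN700 level of SP49. CRACR2B, a regulator of store-operated calcium entry, was at 150.3 with AFN700 against 73.1 with DMSO in REC-1 and at 78.1 with AFN700 against 32.6 with DMSO in SP49. HCN3, a pacemaker-type channel, was at 265.7 with AFN700 against 125.0 with DMSO in REC-1 and at 128.3 with AFN700 against 62.5 with DMSO in SP49, and lay exactly at the limit in SP49 (1.0).

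MZF1, a zinc finger transcription factor, was at 283.2 with AFN700 against 124.2 with DMSO in REC-1 and at 198.3 with AFN700 against 84.2 with DMSO in SP49. SEC31B, a coat protein of vesicles that leave the endoplasmic reticulum, was at 270.1 with AFN700 against 124.2 with DMSO in REC-1 and at 153.2 with AFN700 against 59.5 with DMSO in SP49. TMEM91 differed more in REC-1 than in SP49, by 1.92 in REC-1 (333.1 with AFN700 against 85.9 with DMSO) and 1.04 in SP49 (190.4 with AFN700 against 91.1 with DMSO). The membrane protein genes TMEM187 (1.33 and 1.16) and UNC5CL (1.04 and 1.24) complete the 17.

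**Figure D2:**
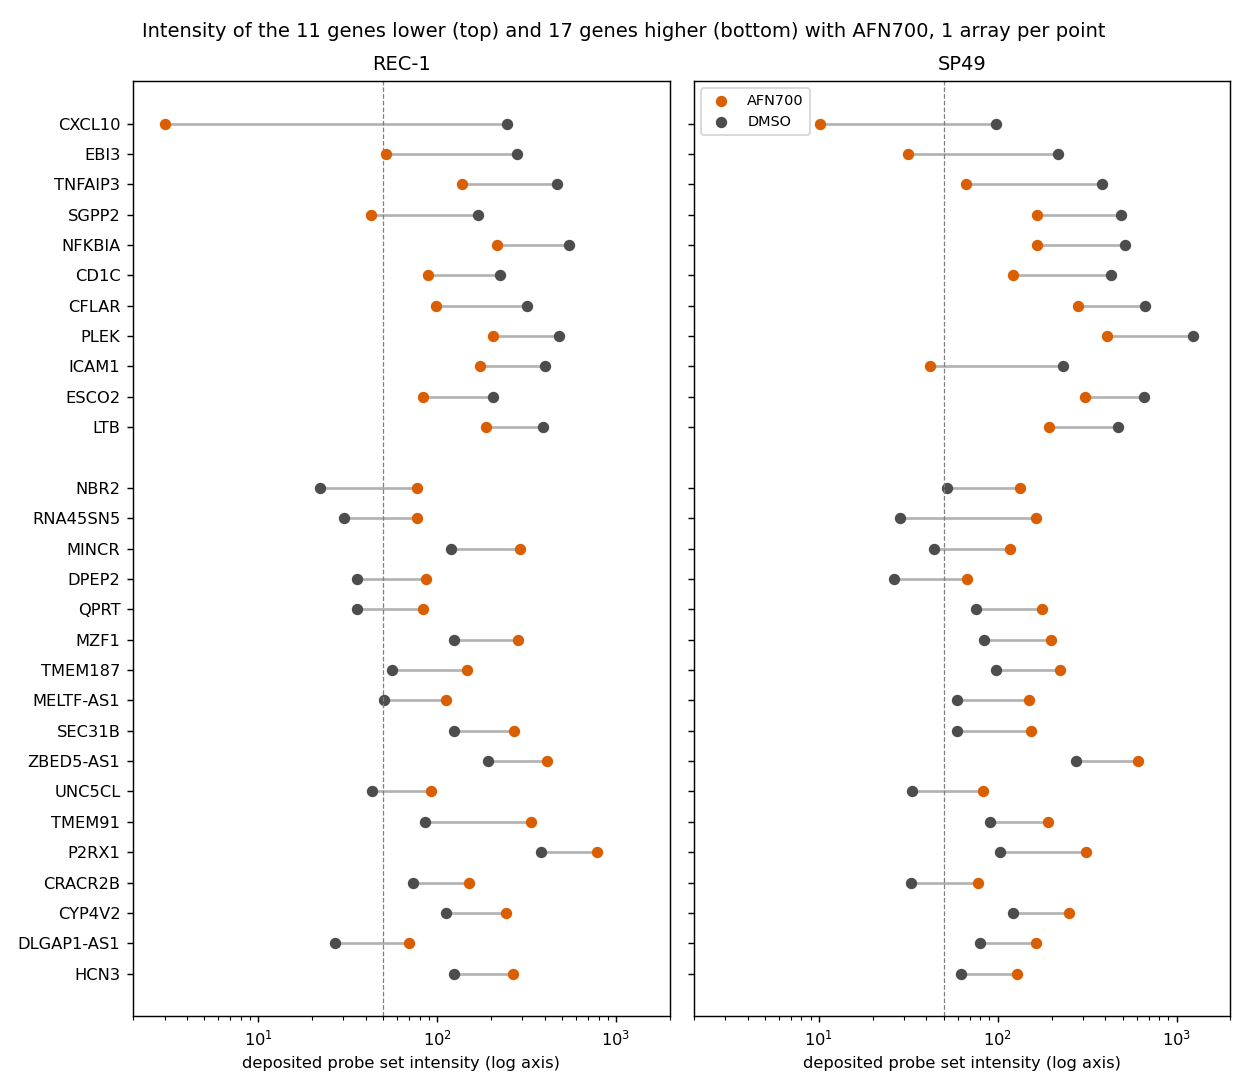
Deposited intensity (log axis) of the 28 genes on the AFN700 and DMSO arrays of REC-1 (left panel) and SP49 (right panel), 1 array per point, with a dashed line at the minimum of 50. The AFN700 points of CXCL10 lie at 3.0 and 10.2, far left of their DMSO partners, and among the higher genes RNA45SN5 in SP49 has the widest step (164.5 with AFN700 and 28.5 with DMSO).

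The values just inside and outside the limit show how sharp it is. LTB (-1.04 and -1.25) and ESCO2 (-1.28 and -1.10) were the last lower genes inside. TNFAIP2, a gene induced by TNF (-0.98 and -1.48), the cytokine gene IL7 (-1.54 and -0.98) and CA2, carbonic anhydrase 2 (-0.97 and -1.32), were the first outside. On the higher side the histone gene H2AC6 (0.98 and 1.03), CFAP410 (0.97 and 1.12) and DICER1-AS1 (1.45 and 0.97) fell just outside.

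At 1.5-fold the rule took 63 lower genes (0.737% of 8544) and 102 higher genes (1.18% of 8664). The genes named in this paragraph were chosen after their values were seen. The 63 held 14 of the genes on the 3 NF-kB, chemokine and cytokine lists, and the 102 held 0. CD40, the receptor by which T cells help B cells, was at 209.9 with AFN700 against 489.3 with DMSO in REC-1 and at 460.6 with AFN700 against 869.4 with DMSO in SP49. CD44, a hyaluronan receptor, was at 245.7 with AFN700 against 525.2 with DMSO and 703.7 with AFN700 against 1307.2 with DMSO. The lower genes also included NFKBID, an atypical IkB protein (275.2 with AFN700 against 414.6 with DMSO in REC-1 and 213.5 with AFN700 against 464.4 with DMSO in SP49), and IL6R, the receptor of interleukin 6 (59.5 with AFN700 against 96.6 with DMSO and 267.1 with AFN700 against 584.5 with DMSO). Among the 102 higher genes 19 (18.6%) were long noncoding RNAs, and among the 63 lower genes 1 (1.59%), DLEU2. STK11, the kinase LKB1 that activates AMPK, was at 694.6 with AFN700 against 335.0 with DMSO in REC-1 and at 304.4 with AFN700 against 166.3 with DMSO in SP49. GPER1, a receptor for oestrogen at the membrane, was at 478.3 with AFN700 against 299.6 with DMSO in REC-1 and at 298.9 with AFN700 against 69.8 with DMSO in SP49.

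In REC-1 alone 66 genes were lower and 148 higher by the same limits, and in SP49 alone 74 and 161. The 11 shared lower genes are 16.7% of the REC-1 genes and 14.9% of the SP49 genes, and the 17 shared higher genes 11.5% and 10.6%. Across the 12314 genes tested, the differences in the 2 lines had a Pearson correlation of 0.22, given as a description, since genes of 1 pair of arrays share that pair. Both lines had negative differences for 23.8% of genes and positive ones for 34.1%. In such bulk RNA, fewer cells with a transcript and less of it per cell cannot be told apart.

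With limma across all 16 arrays, the line as a block and an AFN700 term for the sensitive lines, 0 of 12314 genes (0.0%) had an adjusted p below 0.05. Without adjustment 351 had p below 0.05, 271 of them higher and 80 lower. Every one of the 28 genes had an adjusted p of 1.0 by limma. The fit takes 1 spread from all 8 lines. Without JVM-13 and HBL-2 it called 5 genes, TNFAIP3, SGPP2, PLEK, the proteasome subunit gene PSMD11 and the ribosomal protein gene RPS12. The median SE of the sensitive term was 0.23 without these 2 lines, against 0.36 with all 8. The fit on the 4 arrays alone called 316 genes (2.57%), 207 higher and 109 lower, the 28 among them. That fit has 1 residual degree of freedom and gives every gene the spread shared by genes of like intensity, so a gene's own disagreement between the lines does not count there. As the rule used the same contrast, nothing is read from the 28 being among the 316. The same holds for TNFAIP3, SGPP2 and PLEK among the 5, since the rule had taken them from this contrast.

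Other probe sets of the same genes, which the rule did not use, give a check within these arrays. Of the lower genes 8 had 24 further probe sets, and 20 of the 24 were lower in both lines. All 9 with DMSO intensity above 50 in both lines were lower in both, 2 of them at least 2-fold. Most belong to CFLAR, for which one further probe set was at 229.7 with AFN700 against 545.0 with DMSO in SP49, with differences of -1.30 in REC-1 and -1.23 in SP49. The other CFLAR probe sets above 50 differed less, by -1.0 to -0.22 in REC-1 and by -0.76 to -0.04 in SP49. The size of the CFLAR difference thus depends on the probe set. For the higher genes 9 of 14 further probe sets were higher in both lines, 4 of 4 among those above 50 on both AFN700 arrays, and 0 at least 2-fold. CYP4V2 had one at 1.23 in REC-1 and 0.86 in SP49, and MZF1 one at 0.59 and 0.41. Among those not above 50, another of CYP4V2 was at -0.61 and -0.27, and the further one of NBR2 at -0.24 and 0.04.

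The 12 arrays of the insensitive lines share no sample with the rule. In GRANTA-519 all 11 lower genes were lower with AFN700 as well (median -1.28, against -0.05 over all genes tested), 6 of them at least 2-fold, against 6.07% of all genes. CXCL10 was at 38.4 with AFN700 against 952.2 with DMSO there, and EBI3 at 84.3 with AFN700 against 652.3 with DMSO. Over all genes tested 54.9% were lower in that line, and LTB, at 33.1 with AFN700 against 33.8 with DMSO, hardly differed. In HBL-2 9 of 11 were lower (median -0.74), against 39.1% of all genes, and in JVM-2 9 of 11 (median -0.45), against 48.5%. In Z-138 7 of 11 were lower (median -0.09), against 45.0% of all genes. In Maver-1 2 of 11 were lower, against 49.0%, and in JVM-13 2 of 11, against 38.7%, with medians of 0.08 and 0.66. The JVM-13 arrays differed widely. Of all genes tested 25.7% were at least 2-fold higher with AFN700 there and 7.02% at least 2-fold lower, with a median of 0.27. PLEK was lower in 6 of 6 insensitive lines, by 0.12 to 0.96 on the log2 scale. The share of all genes tested that were lower in all 6 was not determined. CXCL10 lay under 5 with DMSO in HBL-2, Z-138, Maver-1 and JVM-13, so its response cannot be read in those lines. Other lower genes were also near the floor with DMSO. In Z-138 and Maver-1 EBI3 lay at 1.1 and 1.7, SGPP2 at 5.4 and 0.3, and CD1C at 1.2 and 6.0. SGPP2 lay at 8.5 in HBL-2 and CD1C at 8.0 in JVM-13. The counts for these lines thus include genes whose response cannot be read there.

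**Figure D3:**
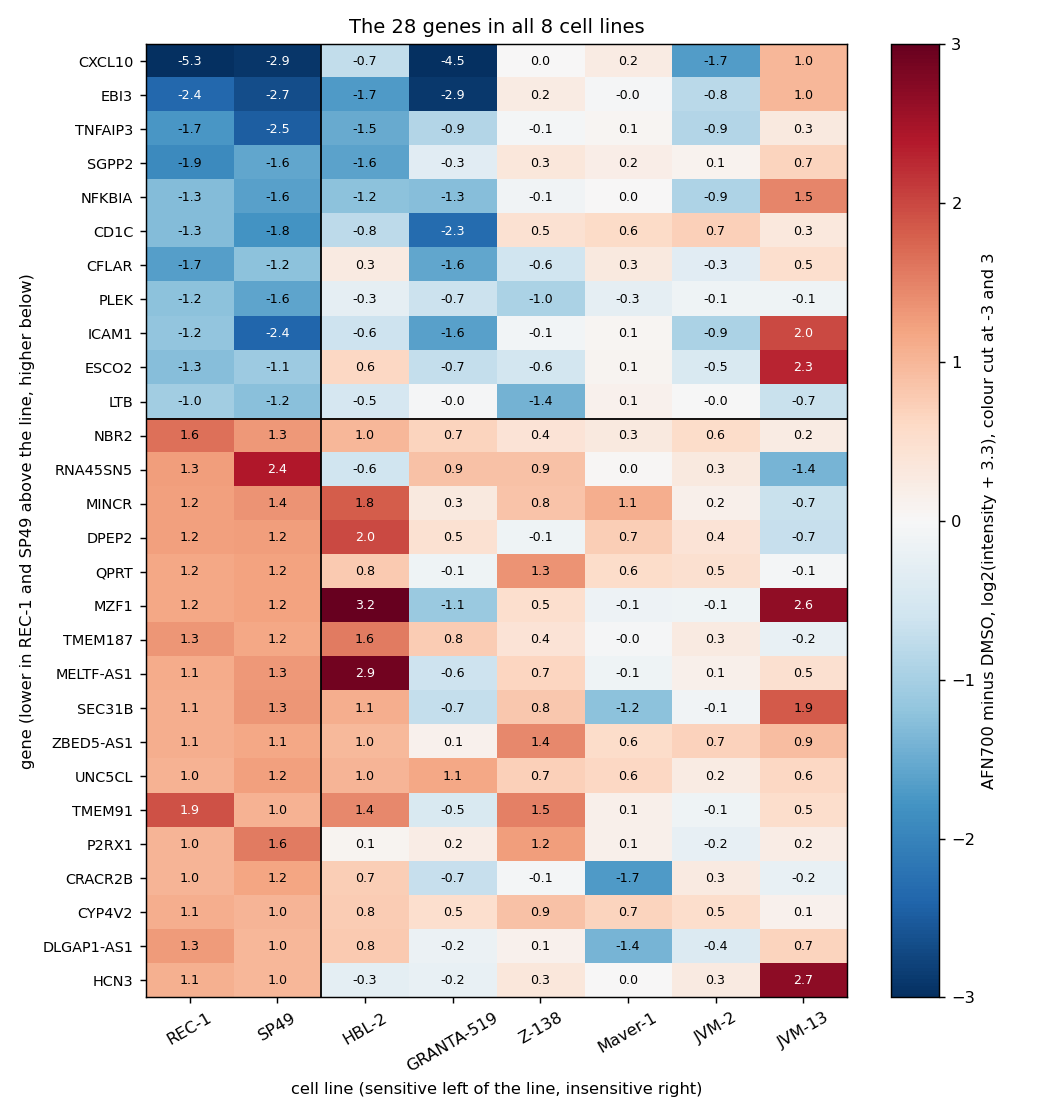
Log2 difference between AFN700 and DMSO of the 28 genes (rows) in all 8 lines (columns), with the sensitive lines on the left. GRANTA-519 had the sign of REC-1 and SP49 for all 11 lower genes, and HBL-2 and Z-138 each had it for 15 of the 17 higher genes.

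The higher genes had the same sign most often in HBL-2 and Z-138, in 15 of 17 each, against 60.6% and 54.5% of all genes tested, with medians of 0.99 and 0.71. In HBL-2 8 were at least 2-fold higher, against 9.87% of all genes tested, and in Z-138 4, against 1.70%. The counts were 12 of 17 in JVM-2 (51.1% of all genes), 11 in Maver-1 (50.6%), 11 in JVM-13 (61.0%) and 9 in GRANTA-519 (44.9%). In JVM-13 3 of the 17 were at least 2-fold higher, against 25.7% of all genes tested. NBR2, ZBED5-AS1, UNC5CL and CYP4V2 were higher in 6 of 6 insensitive lines. The share of all genes tested that were higher in all 6 of these lines was not determined, so nothing is read from that count. Limma's mean over these lines was 0.53 ± 0.18 (SE) for NBR2, 0.78 ± 0.18 for ZBED5-AS1, 0.73 ± 0.19 for UNC5CL and 0.58 ± 0.17 for CYP4V2, with an adjusted p of 0.758 for each. ZBED5-AS1 was at 1109.4 with AFN700 against 563.9 with DMSO in HBL-2 and at 302.9 with AFN700 against 109.0 with DMSO in Z-138. No gene passed limma's test in the insensitive lines (744 genes had p below 0.05 without adjustment). None passed in the test of the difference between sensitive and insensitive lines either, with 0 of 12314 (0.0%) below an adjusted p of 0.05 and 182 below 0.05 without adjustment. For TNFAIP3 that difference was -1.61 ± 0.48 (SE), for PLEK -1.01 ± 0.28 and for CXCL10 -3.16 ± 1.18, each with a limma adjusted p of 1.0. The CXCL10 value averages in HBL-2, Z-138, Maver-1 and JVM-13, where its response cannot be read. It is thus no measure of a difference in response. In GRANTA-519 CXCL10 differed by -4.52, and in JVM-2, at 20.5 with DMSO, by -1.67. No response was therefore shown to be particular to REC-1 and SP49.

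Functions were described through 37 gene lists with 573 tested entries, by their counts and medians, beside the values of all genes tested. Over all genes tested 23.8% were lower in both lines and 34.1% were higher in both. Of 18 NF-kB feedback and signalling genes 13 were lower in both lines (72.2%, against 23.8% of all genes) and 1 was higher in both, with medians of -0.37 in REC-1 and -0.23 in SP49. Beside NFKBIA and TNFAIP3, NFKB1, the p105 subunit gene, was at 343.2 with AFN700 against 474.8 with DMSO in REC-1 and at 269.5 with AFN700 against 472.5 with DMSO in SP49. RELB, a subunit of the alternative pathway, was at 27.6 with AFN700 against 53.2 with DMSO and 24.2 with AFN700 against 51.6 with DMSO. Among 24 survival and adhesion genes that NF-kB induces, 21 (87.5%) were lower in both lines and 2 higher, with medians of -0.56 and -0.76. Among 12 chemokine and cytokine genes of the activated B cell, 8 were lower in both and 0 higher, with medians of -0.45 and -1.30. The cytokine gene TNF was at 21.4 with AFN700 against 37.6 with DMSO in REC-1 and at 87.2 with AFN700 against 299.6 with DMSO in SP49. CXCL9 was at 0.6 with AFN700 against 34.8 with DMSO in REC-1 and at 2.1 with AFN700 against 14.3 with DMSO in SP49, all below 50.

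The BCL2 family holds guardians and executioners of mitochondrial cell death. Of its 16 tested genes 5 were lower in both lines and 5 higher, with medians of 0.07 in REC-1 and -0.19 in SP49. BCL2A1, an antiapoptotic member and NF-kB target, was at 361.1 with AFN700 against 624.2 with DMSO in REC-1 and at 2023.8 with AFN700 against 3210.9 with DMSO in SP49. HRK, a proapoptotic member, was at 110.4 with AFN700 against 79.7 with DMSO in REC-1 and at 395.7 with AFN700 against 134.2 with DMSO in SP49. MCL1 differed by -0.30 and -0.14, and BID by -0.47 and -0.33.

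Genes of the B-cell receptor pathway lay near 0. Of 16 core signalling genes 8 were higher and 4 lower in both lines (medians 0.01 and 0.11), and CD79A (0.63 and 0.12), BLK (0.55 and 0.34), CD79B (0.49 and 0.19) and PIK3CD (0.12 and 0.18) had the smallest p-values. Of 19 B-cell identity genes 9 were higher and 5 lower in both (medians 0.22 and 0.02). POU2AF1, a coactivator of immunoglobulin genes, was at 4176.2 with AFN700 against 3209.4 with DMSO in REC-1 and at 3355.5 with AFN700 against 2507.3 with DMSO in SP49. PAX5, which maintains B-cell identity, was at 588.8 with AFN700 against 1373.9 with DMSO in REC-1 and at 1183.8 with AFN700 against 1385.2 with DMSO in SP49. The difference of PAX5 thus lay mainly in REC-1 (-1.22, against -0.23 in SP49).

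Genes for cell movement were more often higher than lower. Of 18 homing and egress receptors and regulators 10 (55.6%) were higher in both lines, against 34.1% of all genes, and 1 was lower, with medians of 0.31 and 0.33. CXCR4, the receptor for the marrow chemokine CXCL12, was at 4604.2 with AFN700 against 3220.7 with DMSO in REC-1 and at 6493.2 with AFN700 against 5500.9 with DMSO in SP49. P2RY8, a receptor that confines B cells to germinal centres, was at 1563.2 with AFN700 against 1033.0 with DMSO and 1618.6 with AFN700 against 1125.2 with DMSO. RGS1 and RGS2 damp signals of such receptors, and their differences were 0.23 and 0.40 in REC-1 and 3.25 and 2.03 in SP49. RGS1 in SP49 was at 375.3 with AFN700 against 36.4 with DMSO, and in REC-1 at 14.5 with AFN700 against 11.9 with DMSO.

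Of 19 FOXO targets and quiescence genes 11 (57.9%, against 34.1% of all genes) were higher in both lines and 0 lower. Their medians were 0.14 and 0.34. PIK3IP1, an inhibitor of PI3 kinase, was at 8.3 with AFN700 against 0.6 with DMSO in REC-1 and at 61.4 with AFN700 against 23.4 with DMSO in SP49. Its REC-1 values were both near the floor, so its difference there carries little weight. SESN3, a sestrin that restrains mTORC1, was at 1368.0 with AFN700 against 1005.1 with DMSO in REC-1 and at 1080.7 with AFN700 against 517.6 with DMSO in SP49. TXNIP, which limits glucose uptake, differed by 0.51 and 0.67, and YPEL3 by 0.14 and 0.96.

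Genes that build ribosomes and genes of the ribosome itself lay on opposite sides of 0. Of 20 MYC targets and ribosome biogenesis genes 13 (65.0%, against 23.8% of all genes) were lower in both lines and 3 higher. Their medians were -0.20 and -0.15. POLR1B, which encodes part of RNA polymerase I, had an intensity of 545.6 with AFN700 against 868.0 with DMSO in REC-1 and of 599.2 with AFN700 against 863.1 with DMSO in SP49. WDR12 (-0.68 and -0.45) and RRS1 (-0.40 and -0.55) had the same sign, and NOP16 (0.31 and 0.20) the opposite one. Of 19 cytosolic ribosomal protein genes 17 (89.5%, against 34.1% of all genes) were higher in both lines and 0 lower. Their medians were 0.46 in REC-1 and 0.16 in SP49. RPL10A was at 5372.2 with AFN700 against 4116.8 with DMSO in REC-1 and at 4901.4 with AFN700 against 4011.6 with DMSO in SP49, and RPS3, RPL30 and RPS23 differed by 0.46 to 0.53 in REC-1 and 0.17 to 0.20 in SP49. Of the 19, 9 were higher with an unadjusted limma p under 0.05, against 2.2% of all genes tested, and 0 with an adjusted one. The 2.2% covers genes of all intensities, and the 19 share the same arrays, so the 9 are not independent results.

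Of 21 oxidative phosphorylation subunits 14 (66.7%, against 34.1% of all genes) were higher in both lines and 2 lower, with medians of 0.14 and 0.12. COX6C was at 3650.5 with AFN700 against 2622.4 with DMSO in REC-1 and at 3041.8 with AFN700 against 2398.2 with DMSO in SP49, and ATP5F1A differed by 0.50 and 0.31. NDUFA1 (0.44 and 0.17) and COX5B (0.34 and 0.25) had the same sign.

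The medians of proliferation genes differed between the 2 lines, with no test of that difference. Of 24 DNA replication and E2F genes 12 were lower in both lines and 0 higher, with medians of -0.30 in REC-1 and 0.00 in SP49. MCM10, needed to start replication forks, was at 295.7 with AFN700 against 579.5 with DMSO in REC-1 and at 829.7 with AFN700 against 862.6 with DMSO in SP49. CCNE2 (-0.86 and -0.01), E2F1 (-0.79 and 0.06) and POLE2 (-0.34 and -0.25) were likewise farther from 0 in REC-1. Of 10 replication-dependent histone genes 5 were higher in both and 0 lower (medians 0.66 and 0.38). H2AC6 was at 840.7 with AFN700 against 423.8 with DMSO in REC-1 and at 445.1 with AFN700 against 215.7 with DMSO in SP49, while H2AC8, H2BC12 and H2BC5 differed by 1.61, 0.43 and 0.99 in REC-1 and by 0.96, 0.56 and -0.03 in SP49. Of 20 genes of the integrated stress response and serine synthesis 9 were lower and 2 higher in both (medians -0.06 and -0.11). PSAT1, a serine synthesis enzyme, was at 576.1 with AFN700 against 878.3 with DMSO in REC-1 and at 424.5 with AFN700 against 675.4 with DMSO in SP49. MTHFD2, the mitochondrial folate enzyme, differed by -0.51 and -0.40, while SHMT2 (0.34 and 0.17) had the opposite sign and CHAC1 lay at -0.30 and -1.12.

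**Figure D4:**
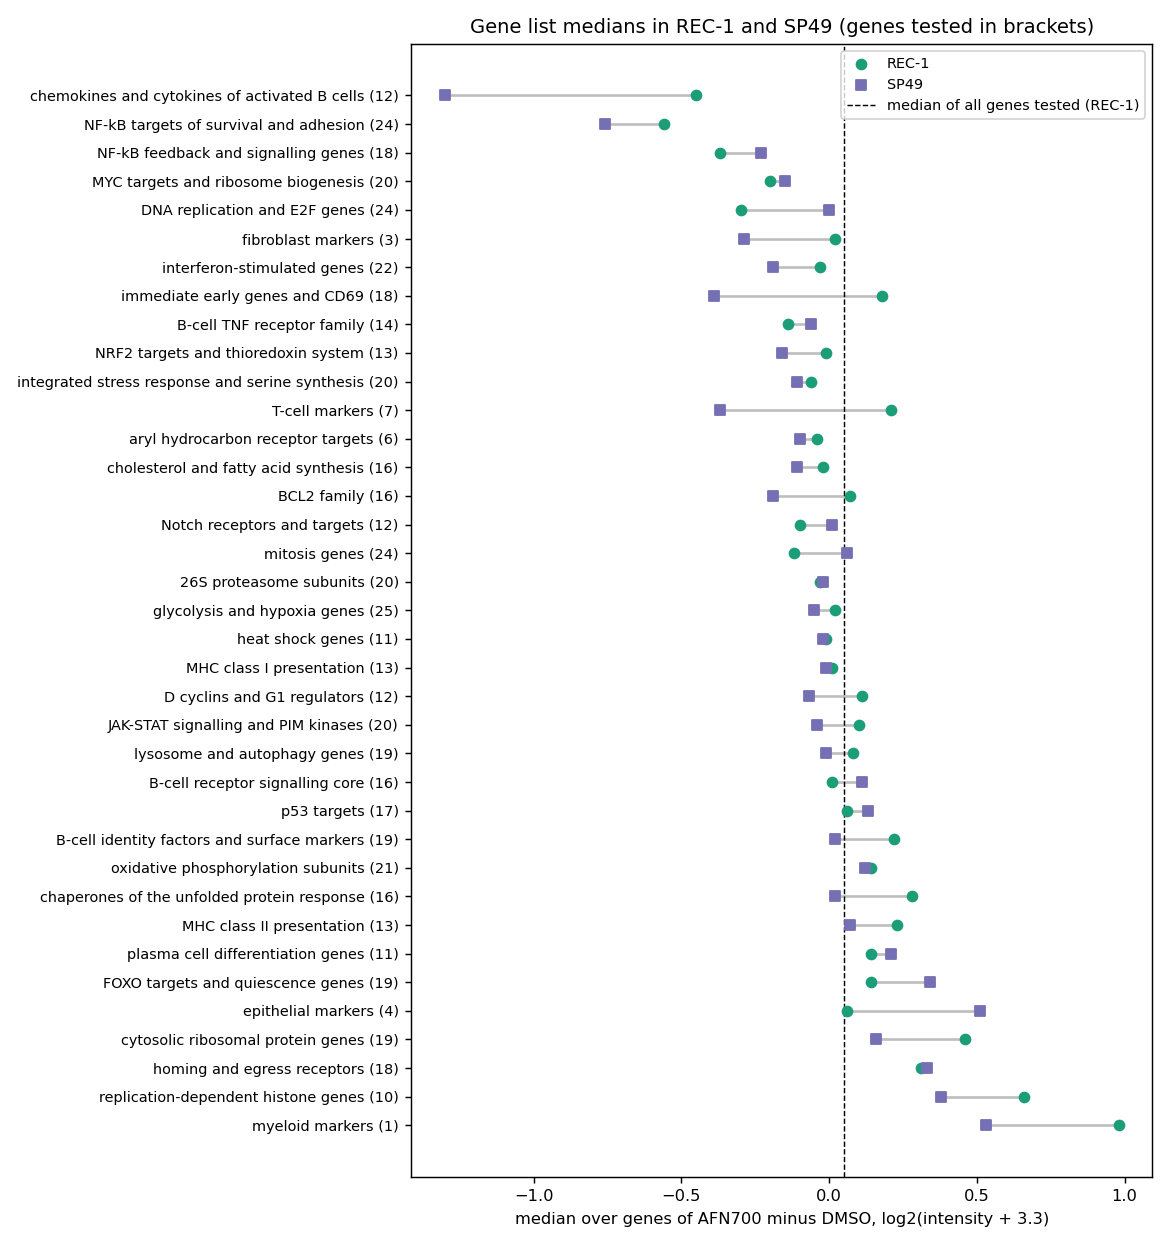
Median log2 difference between AFN700 and DMSO over the tested genes of each of 37 lists in REC-1 (circles) and SP49 (squares), with the number of genes in brackets and a dashed line at the REC-1 median of all genes (0.05). The chemokine and cytokine list and the survival and adhesion list of NF-kB genes lie lowest in both lines. The NF-kB feedback list (-0.37 in REC-1 and -0.23 in SP49) lies next to these in REC-1, but in SP49 it lies above the immediate early, T-cell and fibroblast lists.

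The other 19 lists of functions had medians between -0.14 and 0.28 in REC-1 and between -0.39 and 0.21 in SP49. They cover interferon, MHC, p53, mitosis, glycolysis, cholesterol, proteasome, chaperone, Notch and JAK-STAT genes, among others. The lowest in SP49 was the list of immediate early genes with CD69, at 0.18 in REC-1. Of their 302 tested entries 0 met the 2-fold rule, and 2 were lower at 1.5-fold. These were PSMD11 (740.6 with AFN700 against 1353.4 with DMSO in REC-1 and 785.5 with AFN700 against 1457.0 with DMSO in SP49) and CD40.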

How the data were processed

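RNA of 16 cultures of 8 lines was measured on Affymetrix arrays, 1 per line and treatment. The authors deposited 1 intensity per probe set on a linear scale. MAS5 made them, per the submitters' processing notes, and each array's 2% trimmed mean is 150.0 in the values. The platform table named 41097 of 54675 probe sets with 1 gene. The probe set with the highest mean over 16 arrays stood for each of 19775 genes. Differences were taken on log2(intensity + 3.3), where 3.3 is the 25th percentile over all deposited values. Genes over the 60th percentile of 2 or more arrays were tested (12314 genes). Limma 3.58.1 in R 4.3.3 (lmFit, eBayes with a trend) was fitted to all arrays with line as a block and an AFN700 term for sensitive and for insensitive lines, with Benjamini-Hochberg adjustment. The line pairs the arrays, since same-numbered samples are the same cell line. P-values measure the spread between single arrays of lines. The steps were tested on simulated data. The named genes follow the fold rule, plus up to 4 genes of smallest limma p from each of 14 lists described in detail. Members, lists and rules were chosen with earlier results of these data known. Depth per array is not defined for intensities, no detection calls were used here, and no scan dates were used.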

Additional observations from a re-analysis of the deposited data

Results flagged for a closer look

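In the 6 insensitive lines, 3 of the 28 genes had 1 line far from the others by Dixon's gap test, which flags about 1 in 20 groups by chance. MELTF-AS1 differed by 2.89 in HBL-2, where it was at 270.5 with AFN700 and 33.7 with DMSO, and by -0.63 to 0.65 in the other insensitive lines. P2RX1 differed by 1.25 in Z-138 (23.9 with AFN700 and 8.1 with DMSO) and by -0.24 to 0.23 in the others. HCN3 differed by 2.69 in JVM-13 (54.7 with AFN700 and 5.7 with DMSO) and by -0.29 to 0.35 in the others. The DMSO values of P2RX1 and HCN3 there were near the floor. Of all genes tested 9.87% in HBL-2 and 25.7% in JVM-13 were at least 2-fold higher with AFN700. The share of all genes tested that the gap test flags was not determined, so the 3 are not read as particular to these genes.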

How the results depend on the processing

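The 28 genes kept their direction under every alternative run. For most alternatives this was fixed in advance, since the rule had required that sign in each line. Only another scaling of the arrays or other probe sets could have turned it. The count of lower genes, 11 as deposited, was 6 when all probe sets of a gene were averaged, 31 with no intensity minimum and 63 at 1.5-fold. In 1 line alone, a choice made after seeing the data, it was 66 to 74. The count of higher genes, 17, was 7 with a pseudocount of 16, 8 with arrays centred, 10 with an intensity minimum of 100, 10 with all probe sets averaged, 83 with no minimum, 102 at 1.5-fold and 148 to 161 in 1 line alone. Limma called 316 genes with the 4 arrays alone and 5 without JVM-13 and HBL-2, where the main count is 0. It called 0 under the other settings run, among them a fit with no replicate block, where 34 genes had an unadjusted p under 0.05 instead of 351, and fits without REC-1 or without SP49. Of 76 named genes 3 turned sign under 1 setting: NOP16 was at -0.08 with all probe sets averaged, and E2F1 was at 0.06 without REC-1 (-0.79 without SP49) and H2BC5 at -0.03 without REC-1 (0.99 without SP49). Without REC-1 the estimate is the SP49 difference alone, so E2F1 and H2BC5 turned because the 2 lines had opposite signs. For NOP16 the cause was not tested. Of 518 list medians under alternatives 64 moved by more than the SD between the 2 lines. With n = 2 lines and intensities near the floor, values under about 50 carry little weight.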

Other observations

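A pair of genes, chosen after their values were seen, differed at least 2-fold in opposite directions in the 2 lines. ABCB1, the drug efflux pump P-glycoprotein, was at 746.9 with AFN700 against 1625.6 with DMSO in REC-1 (-1.12), and at 279.9 with AFN700 against 134.7 with DMSO in SP49 (1.04). INHBE, an inhibin subunit gene, was at 58.2 with AFN700 against 23.9 with DMSO in REC-1 (1.18), and at 19.6 with AFN700 against 90.8 with DMSO in SP49 (-2.04). In the insensitive lines ABCB1 differed by -0.82 to 0.22, and INHBE by -1.43 to -0.10.

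By probe sets, 23 met the rule on the lower side and 29 on the higher side. On the lower side 11 stood for a gene, 10 were further probe sets with a gene name and 2 had no single gene. On the higher side these counts were 17, 7 and 5. Of the further probe sets 2 on the lower side and 0 on the higher side belong to the 28 genes, and the others belong to genes whose main probe set did not meet the rule.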
